A study of Mus musculus with 38 samples.

Results

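The sites described here are places away from promoters where the coactivator p300 was called in lymphoid progenitors both before and after Notch stimulation, and where RUNX1 was called at neither stage. They were chosen by the presence or absence of peaks in 4 lists: a p300 peak of the LP list whose annotation is not promoter-TSS was kept if it shared at least 1 bp with a p300 peak of the Phase 1 list and no base with a RUNX1 peak of the LP or the Phase 1 list. Of 36182 LP p300 peaks, 26879 lay outside promoters, 20129 of those had a Phase 1 p300 peak, and 18532 of these overlapped RUNX1. The remaining 1597 sites, 7.93% of the constant distal p300 peaks and 5.94% of all distal ones, are the constant distal p300 sites without RUNX1. The p300 scores and the absence of RUNX1 thus define the sites and are given below as a description only, with no test.

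All chromatin came from Cas9-LP, a line of mouse fetal liver progenitors that lack Ebf1, a factor needed for B cell development, and that express Cas9 from the Rosa26 locus. LP cells were cultured on OP9 stroma, which gives no Notch ligand, and Phase 1 cells on OP9-DLL4 stroma, whose Delta-like 4 starts the T cell program. Chromatin immunoprecipitation sequencing (ChIP-seq) was done for p300, RUNX1, CTCF, the Mediator subunit Med12 and the Notch1 intracellular domain (Notch1-IC), with 2 replicates a group. In 2 further Phase 1 groups the cells carried a guide RNA against luciferase (sgCont) or against Cbfb (sgCbfb), the partner that RUNX proteins need to bind DNA, before Med12 was measured. RUNX1 was also measured in LP cells with sgCont or a guide against CTCF (sgCTCF) and in Phase 1 cells with sgCont or a guide against Med12 (sgMed12), and Notch1-IC in Phase 2 cells, which had longer on OP9-DLL4 and are past T lineage commitment. Med12 without a named guide means the lists of cells without guides. The labels do not say whether the replicates were separate cultures, or whether the line is 1 clone. Each of the 17 peak lists combines both replicates and is 1 measurement of its group, so the intervals (95%, Wilson for shares) and p-values here cover the counting of sites only and not the spread between cultures. The lists hold 152 to 49116 peaks with no read counts, so the depth behind a peak is unknown, and the identity of the cells could not be checked against marker expression in these lists.

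p300 is a histone acetyltransferase that is brought to enhancers by DNA-bound factors, and its presence away from promoters is a common mark of active enhancers. Mediator links such factors to RNA polymerase II, whereas CTCF binds a long recognition sequence, stops cohesin and marks loop anchors and domain borders. RUNX1 is a main organizer of blood cell enhancers, and MYB, another factor of blood progenitors, is a well-known partner of p300.

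The sequence at the sites was not used to choose them, and 7 sites are shown because their strings return in the results below, each as the 200 bp around the peak centre on the plus strand of mm10. In the sites near Cd300c (chr11:114969424-114969623), D17H6S56E-5 (chr17:34996118-34996317) and Xxylt1 (chr16:30966335-30966534), capitals mark AACNG, the core of the MYB consensus, or its reverse complement CNGTT. These 3 sites were among the 10 highest LP p300 scores and hold 8, 6 and 7 such cores. The first lies between genes, the second at the annotated transcript end of its gene but in no exon, and the third in intron 3 of Xxylt1. The genome sequence and gene models are those of GRCm38.

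Cd300c: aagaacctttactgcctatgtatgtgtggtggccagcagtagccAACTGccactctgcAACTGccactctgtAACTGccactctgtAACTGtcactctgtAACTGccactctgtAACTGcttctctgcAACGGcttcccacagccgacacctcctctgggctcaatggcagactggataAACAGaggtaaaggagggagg
D17H6S56E-5: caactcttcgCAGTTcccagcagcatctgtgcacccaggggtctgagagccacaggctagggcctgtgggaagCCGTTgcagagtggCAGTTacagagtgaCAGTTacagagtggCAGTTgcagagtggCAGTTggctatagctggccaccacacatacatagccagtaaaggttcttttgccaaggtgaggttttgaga
Xxylt1: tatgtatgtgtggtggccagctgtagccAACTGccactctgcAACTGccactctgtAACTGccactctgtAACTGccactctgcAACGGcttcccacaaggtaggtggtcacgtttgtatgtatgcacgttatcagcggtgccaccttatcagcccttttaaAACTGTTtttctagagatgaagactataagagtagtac

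The site near Irf8 (chr8:120821497-120821696), intergenic in the deposited annotation, and the site near Zfpm1 (chr8:122273223-122273422) are shown for the CTCF consensus string of 12 letters, in capitals. The latter is annotated at a transcript end and lies -8.82 kb from the start of Zfpm1, its nearest gene. In GENCODE both lie in no exon but within the long gene model Gm20388. The sites in intron 1 of Fosl1 (chr19:5448714-5448913) and intron 1 of Ikzf1 (chr11:11691761-11691960) are shown for the AP-1 string TGACTCA and the PU.1 string GAGGAAGT, in capitals on either strand.

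Irf8: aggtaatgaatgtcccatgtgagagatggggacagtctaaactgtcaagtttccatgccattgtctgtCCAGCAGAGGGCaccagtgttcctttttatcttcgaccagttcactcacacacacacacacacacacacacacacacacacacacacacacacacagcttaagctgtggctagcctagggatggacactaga
Zfpm1: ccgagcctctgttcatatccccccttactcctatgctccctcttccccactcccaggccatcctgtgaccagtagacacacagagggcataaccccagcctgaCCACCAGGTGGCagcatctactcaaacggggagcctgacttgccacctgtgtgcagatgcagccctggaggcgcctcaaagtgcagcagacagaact
Fosl1: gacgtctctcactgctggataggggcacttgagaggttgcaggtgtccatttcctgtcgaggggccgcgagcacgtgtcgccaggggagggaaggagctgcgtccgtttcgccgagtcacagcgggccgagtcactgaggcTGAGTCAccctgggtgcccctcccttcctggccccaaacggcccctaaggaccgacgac
Ikzf1: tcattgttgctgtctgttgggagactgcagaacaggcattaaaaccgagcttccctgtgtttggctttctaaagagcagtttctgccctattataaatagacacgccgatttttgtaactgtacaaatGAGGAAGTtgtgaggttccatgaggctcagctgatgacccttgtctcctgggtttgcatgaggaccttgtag

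Most sites were weak p300 peaks. The LP peak score, HOMER's measure of signal at a peak, had a median of 25.5 with quartiles of 19.3 and 39.1, against a median of 56.5 at the 18532 constant distal sites with RUNX1 and 20.3 at the 2858 LP-specific distal sites without RUNX1. When the constant distal sites were divided into 5 equal classes of LP score, those without RUNX1 made up 21.2% of the lowest class and 1.59% of the highest. Their scores in LP and Phase 1 went together across sites (Spearman's rho 0.61 over 1597 sites of the same lists, as a description), and 201 sites lay in the upper 50% of both lists.

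A few sites were strong at both stages. The highest LP score, 509.3, was at chr19:5846567-5846895 upstream of Neat1, a long noncoding RNA, with a Phase 1 score of 415.5. The site next to Mir142, a microRNA gene of blood cells, scored 495.5 in LP and 456.8 in Phase 1, and the site upstream of Yy1, which encodes a widely expressed zinc finger factor, scored 404.0 and 448.8. The 10 highest sites of each stage came to 15 sites, and 7 of these lay within 1 kb of a transcript start in GENCODE although the deposited annotation calls none of them a promoter. A RUNX1 peak lay within 1 kb of 9 of the 15, among them the sites of Neat1 at 494 bp and Yy1 at 275 bp, whereas 16.6% of all 1597 sites had one that near.

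Sites with the highest p300 scores lay more often near starts. Of the 399 sites with the highest LP scores, 120 (30.1%, 25.8% to 34.7%) had a GENCODE start within 1 kb, against 39 of the 400 with the lowest (9.75%, 7.21% to 13.1%). In the groups of 399 between these the numbers were 48 and 42, so the share stood out in the highest group. Over all 1597 sites the share was 15.6%, close to the 15.1% of the constant sites with RUNX1. It was 12.4% at LP-specific and 8.62% at Phase 1-specific sites without RUNX1. By the deposited annotation a start lay within 2 kb of 12.7% (11.2% to 14.4%) of the sites. That share was 9.18% (8.78% to 9.61%) with RUNX1 and 7.77% at LP-specific sites without RUNX1. Introns held 752 sites and intergenic sequence 734, and the intergenic share, 46.0% against 44.2% with RUNX1, did not pass the test (odds ratio 1.07, 95% interval 0.967 to 1.19, adjusted exact p = 0.232 in Fisher's exact test, two-sided, with Benjamini-Hochberg adjustment over the 22 comparisons).

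Mediator was found at far fewer of these sites than where RUNX1 was present. A Med12 peak of LP lay on 25.6% of the sites (23.5% to 27.8%, 409 of 1597), against 84.4% of constant sites with RUNX1 and 73.0% of all distal LP p300 peaks. The corresponding shares for the Phase 1 Med12 list were 28.5% (455 sites), 90.0% and 67.2%. The odds ratios were 0.0638 (0.0566 to 0.0718) and 0.0440 (0.0391 to 0.0496), with p too small for the software to represent in both. The gap was present at every level of p300: within the 5 score classes, LP Med12 lay on 20.5% to 33.9% of the sites without RUNX1 and on 47.6% to 97.9% of those with it, and the odds ratio pooled over classes was 0.148 (0.131 to 0.168).

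Med12 at the sites was also faint and mostly listed at 1 stage only. The LP Med12 peaks there had a median percentile of 14.8 in their list, against 47.3 at constant sites with RUNX1 and 11.3 at LP-specific sites without RUNX1. For the Phase 1 Med12 peaks it was 19.0, against 58.7 at constant sites with RUNX1. Of the 677 sites with Med12 at either stage, 187 had it at both, which is 27.6% (24.4% to 31.1%). The share was 80.8% (80.2% to 81.4%) at constant sites with RUNX1. Of 769 LP-specific sites without RUNX1 that had Med12 at either stage, 90 had it at both. Among the 677, Med12 was listed in LP only at 222 sites and in Phase 1 only at 268. Exceptions with high scores were the intron 1 site of Hnrnpl, which encodes an RNA-binding splicing factor, with Med12 scores of 255.0 in LP and 171.3 in Phase 1, 250 bp from a RUNX1 peak, and the site upstream of Eapp, with 423.4 in LP and no peak in Phase 1. The Eapp site lay 5 bp from a RUNX1 peak and had a RUNX1 score of 32.2 in Phase 1 sgCont cells.

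In the share with Med12 the sites were close to stage-specific p300 sites that also lack RUNX1. LP Med12 lay on 25.1% of the LP-specific sites without RUNX1 (odds ratio 1.03, 0.892 to 1.18, adjusted exact p = 0.754). Phase 1 Med12 lay on 29.0% of the 11645 Phase 1-specific sites without RUNX1 and on 28.9% of the Phase 1 peaks of the constant sites (odds ratio 0.995, 0.887 to 1.12, adjusted exact p = 0.953). The latter depended on the setting: the odds ratio was 0.386 (adjusted exact p = 1.09e-19) for p300 scores of at least 30 and 1.26 (adjusted exact p = 0.00154) when sites with CTCF were left out.

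**Figure D1:**
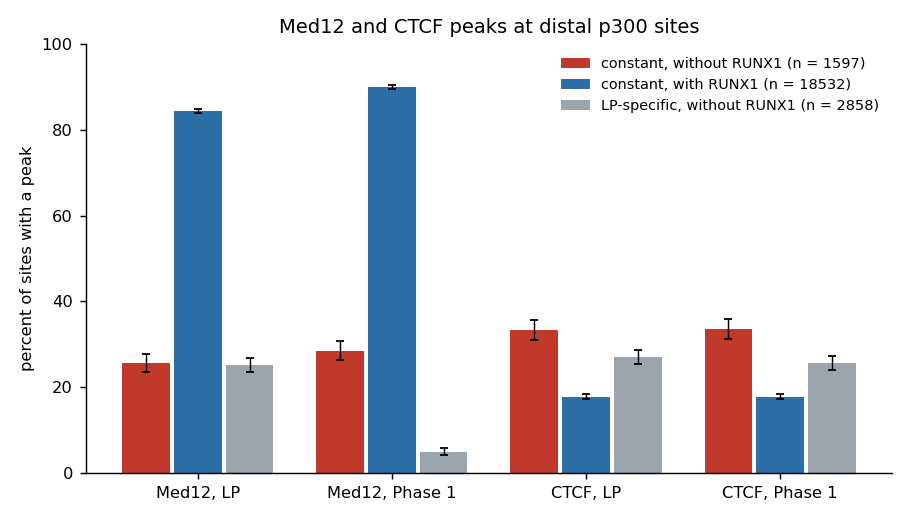
Percent of distal p300 sites (vertical axis) that overlap a Med12 or CTCF peak of each stage, for constant sites without RUNX1, constant sites with RUNX1 and LP-specific sites without RUNX1; bars are shares and lines 95% Wilson intervals over sites. Med12 lay on 25.6% and 28.5% of the constant sites without RUNX1 and on 84.4% and 90.0% of those with it, and CTCF on 33.3% and 33.6% against 17.8% and 17.8%.

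CTCF was found at more of these sites than where RUNX1 was present, except among the strongest. LP CTCF peaks lay on 33.3% of the sites (31.0% to 35.7%, 532 of 1597), 17.8% of constant sites with RUNX1 and 20.9% of all distal LP p300 peaks; Phase 1 CTCF lay on 33.6%, 17.8% and 20.4%. The odds ratios against constant sites with RUNX1 were 2.31 (2.07 to 2.58, adjusted exact p = 2.18e-45) in LP and 2.34 (2.09 to 2.61, adjusted exact p = 1.63e-46) in Phase 1. Against the LP-specific sites without RUNX1 the LP odds ratio was 1.35 (1.18 to 1.54, adjusted exact p = 2.18e-05), and against the Phase 1-specific sites, of which 7.03% had Phase 1 CTCF, it was 6.68 (5.89 to 7.57, adjusted exact p = 1.74e-170). The excess over sites with RUNX1 lay in the 3 lower classes of p300 score, with LP CTCF at 34.2% against 12.5% in the lowest. It was 19.0% against 18.6% in the fourth class, and in the highest it turned round, with 7.81% (5 of 64) against 20.7%.

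Unlike Med12, CTCF was strong at the sites and mostly listed at both stages. Of the 549 sites with CTCF at either stage, 519 had it at both (94.5%, 92.3% to 96.1%), against 72.3% (70.8% to 73.7%) at constant sites with RUNX1. Of 782 LP-specific sites without RUNX1 that had CTCF at either stage, 721 had it at both. LP CTCF peaks at the constant sites without RUNX1 had a median percentile of 85.3 in their list. It was 85.5 at LP-specific sites without RUNX1 and 63.9 at constant sites with RUNX1. The highest scoring p300 site with CTCF and no Med12 was in intron 1 of Scd2, a fatty acid desaturase gene, with a CTCF score of 311.4 in LP and 405.9 in Phase 1 and a Med12 score of 46.3 in the sgCbfb list. The CTCF string was present at 7.39% of the sites, 1.47% of constant sites with RUNX1 and 0.188% of windows of the same length 2 kb to either side. Against sites with RUNX1 the odds ratio was 5.34 (4.27 to 6.66, adjusted exact p = 2.03e-38). Against LP-specific sites without RUNX1, with 5.77%, it was 1.30 (1.02 to 1.66, adjusted exact p = 0.0590). Phase 1-specific ones had 0.867%, against 6.95% of the Phase 1 peaks of the sites (odds ratio 8.54, 6.49 to 11.2, adjusted exact p = 1.78e-46). An LP CTCF peak lay on 115 of the 118 sites with the string.

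By these 2 factors the sites fell into 4 classes: 567 with neither Med12 nor CTCF at either stage, 481 with Med12 without CTCF, 353 with CTCF without Med12 and 196 with both. The class with neither factor made up 35.5% of the sites (33.2% to 37.9%) and 2.56% of the constant sites with RUNX1. It was larger still at sites of 1 stage without RUNX1, with 51.9% of the LP-specific and 65.0% of the Phase 1-specific ones. Their median LP score was 24.8, against 25.5 over all 1597, and they included the sites at Neat1, Mir142 and Yy1. At Mir142 a Med12 peak with a score of 105.9 was present in the sgCbfb list alone.

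The RUNX strings TGTGGTT and TGCGGTT, searched on both strands in the 200 bp around the centre, were rare. One or both were present at 8.64% of the sites, 28.4% of constant sites with RUNX1 and 5.79% of the windows 2 kb away from the sites. The odds ratio against sites with RUNX1 was 0.238 (0.200 to 0.285). Both classes were set by RUNX1 peaks, so this difference is a description. LP-specific sites without RUNX1 held a RUNX string at 10.3% (odds ratio 0.828, 0.670 to 1.02, adjusted exact p = 0.105). For Phase 1-specific ones the share was 13.3%, against 8.89% of the Phase 1 peaks of the sites (odds ratio 0.635, 0.530 to 0.760, adjusted exact p = 4.43e-07). The PU.1 string was present at 6.45% of the sites, 11.7% of those with RUNX1 (odds ratio 0.520, 0.424 to 0.638, adjusted exact p = 3.19e-11) and 1.38% of the flanking windows. It was at 8.71% of LP-specific sites without RUNX1 (odds ratio 0.722, 0.569 to 0.917, adjusted exact p = 0.0120). Against Phase 1-specific ones the direction was the other, with 6.26% of the Phase 1 peaks of the sites against 3.37% (odds ratio 1.92, 1.53 to 2.40, adjusted exact p = 1.88e-07). For the AP-1 string (10.0% against 8.59%, odds ratio 1.18, 0.998 to 1.41, adjusted exact p = 0.0794) and the E-box strings CAGCTG and CAGGTG (40.7% against 39.4%, odds ratio 1.06, 0.952 to 1.17, adjusted exact p = 0.328), the test was not passed. AP-1 passed with 1 site per nearest gene (odds ratio 1.26) and without CTCF sites (1.36), and the E-box when matched on p300 score (1.24) and without CTCF sites (1.18).

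The MYB string CAACTG set the sites apart from the other classes. It was present at 29.0% of the sites (26.8% to 31.3%, 463 of 1597), 15.9% of constant sites with RUNX1, 18.3% of LP-specific and 15.9% of Phase 1-specific sites without RUNX1, and 9.08% of the flanking windows. All 22 strings were then compared with constant sites with RUNX1 in a set of tests added after the data were seen: MYB gave an odds ratio of 2.16 (1.92 to 2.42, adjusted exact p over the strings = 6.14e-35) and 2.34 (2.07 to 2.64) when matched on p300 score. In that set the IRF string GAAANNGAA (10.5% against 8.12%, odds ratio 1.32, adjusted exact p = 0.00677) and the RBPJ string GTGGGAA (6.20% against 4.60%, odds ratio 1.37, adjusted exact p = 0.0205) were also more frequent. Matched on p300 score, IRF no longer passed after adjustment (odds ratio 1.23, unadjusted interval 1.03 to 1.46). Without the 37 sites annotated in the repeat described below, the RBPJ string was at 4.17% (65 of 1560), under the share with RUNX1, and MYB at 27.4% (25.3% to 29.7%). CAACTG has the CANNTG form of an E-box too, so the letters alone do not name the factor that binds.

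**Figure D2:**
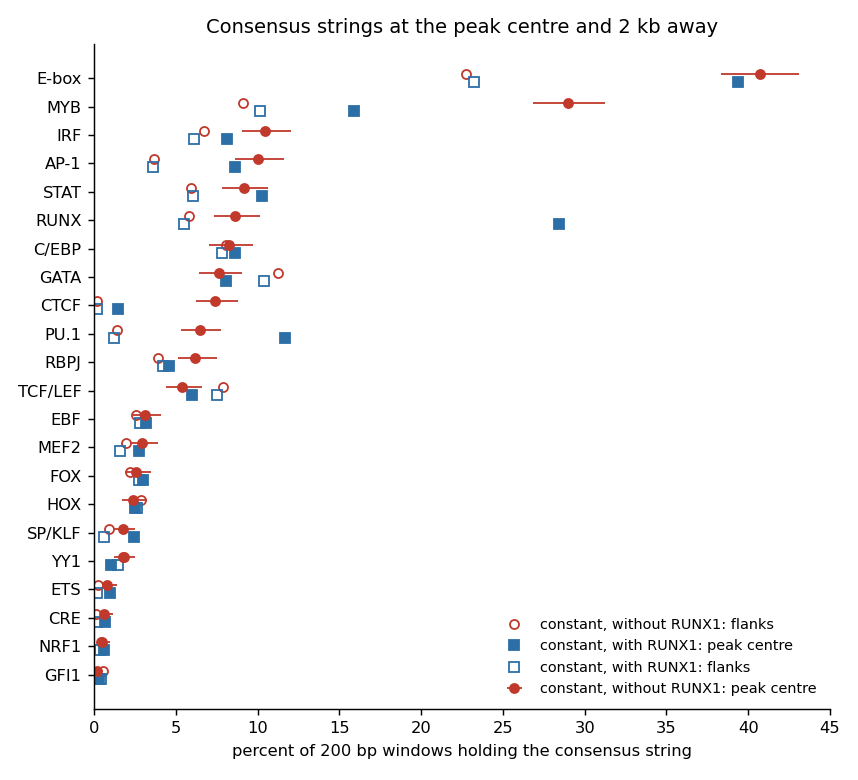
Percent of 200 bp windows that hold each of 22 consensus strings (horizontal axis), at the peak centre (filled) and 2 kb to either side (open), for constant distal p300 sites without RUNX1 (circles, with 95% Wilson intervals) and with RUNX1 (squares). The MYB string was at 29.0% of centres without RUNX1 and 15.9% with it, and the RUNX string at 8.64% and 28.4%.

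A ranking of all 8192 words of 7 letters, a word and its reverse complement counted as 1, used no consensus. The word with the largest excess at the centres over the flanking windows was AACTGCC, which holds the MYB core AACNG, at 17.2% of the sites (15.4% to 19.1%, 275 of 1597) against 2.22% of flanking windows. It was at 6.25% of constant sites with RUNX1, 8.64% of LP-specific and 5.70% of Phase 1-specific sites without RUNX1. The second word, ACTTCCT, of the ETS type, was at 18.0% of the sites and 25.2% of those with RUNX1. Without the sites annotated in the repeat described below the order changed. ACTTCCT then came first, at 18.3% against 4.94% of flanking windows, and AACTGCC second, at 15.3% against 2.24%. AACTGCC was chosen by the ranking over all sites, so its share has an interval and no test.

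AACTGCC was concentrated in the class with neither Med12 nor CTCF. It was at 25.7% (22.3% to 29.5%) of those 567 sites, 16.1% (12.7% to 20.3%) of sites with CTCF without Med12, 12.1% (9.44% to 15.3%) with Med12 without CTCF and 7.14% (4.30% to 11.6%) with both. Correspondingly, LP Med12 lay on 14.2% (10.6% to 18.8%) of the 275 sites with the word and 28.0% (25.6% to 30.5%) of the 1322 without it. The word was centred on the p300 peak: it occurred 130 times per 1000 sites in the 50 bp just before the centre and 109 times in the 50 bp just after, against 3.76 to 6.89 times in the outermost 2 bins on each side. Without the sites annotated in the repeat described next, the central values were 82.1 and 68.6.

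**Figure D3:**
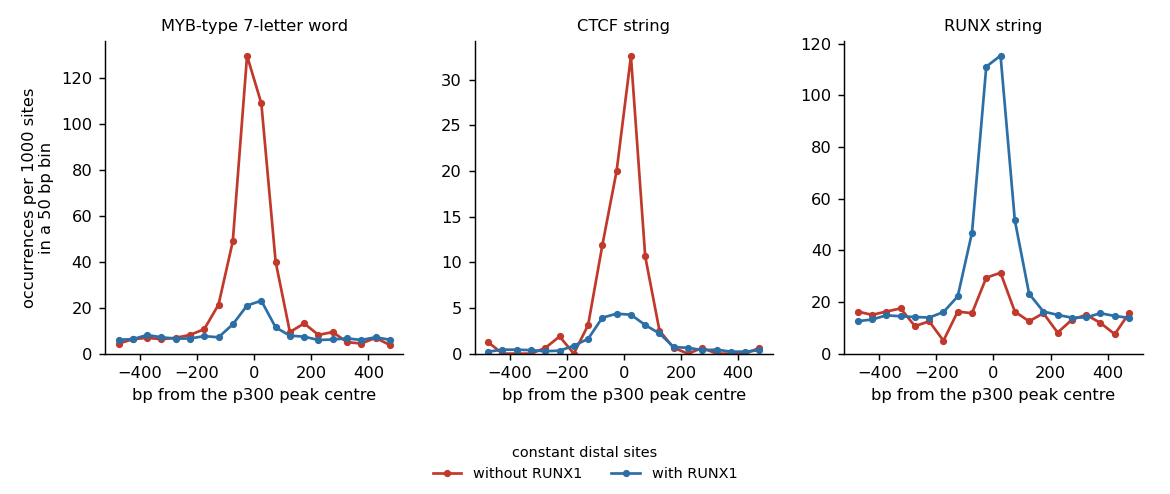
Occurrences per 1000 sites in 50 bp bins (vertical axis) against distance from the p300 peak centre in bp, for the MYB-type word AACTGCC, the CTCF string and the RUNX string at constant distal sites without and with RUNX1. The word peaked at 130 per 1000 in the bin before the centre of sites without RUNX1 and at 23.0 per 1000 in the bin after the centre of sites with it.

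Some of the sites with the word lay in copies of 1 kind of retroviral long terminal repeat (LTR). The deposited annotation placed 37 of the 1597 sites in RLTR10B or RLTR10B2 (2.32%), against 9 of 18532 constant sites with RUNX1 (0.0486%), 12 of 2858 LP-specific and 0 of 11645 Phase 1-specific sites without RUNX1, the last of which allows a share of up to 0.0258%. Every one of the 37 held AACTGCC at least 2 times, with a median of 7 AACNG cores (3 to 13) in 200 bp, whereas flanking windows had a median of 1. They were spread over 16 chromosomes and 35 nearest genes. In the whole lists, 59 LP and 40 Phase 1 p300 peaks lay in the repeat, against 9 and 10 RUNX1 peaks, 13 and 10 Med12 peaks and 1 and 1 CTCF peaks. Repeat copies can share reads, and the authors' alignment kept reads with up to 10 equally good places, so the signal of any single copy is uncertain.

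The LTR sites ranked higher among p300 peaks in LP than in Phase 1. Their LP p300 scores ran from 16.4 to 326.2 with a median of 71.0, and their Phase 1 scores from 15.2 to 118.5 with a median of 30.5; the percentile within the list was higher in LP at 31 of 37. Among the 1322 sites without AACTGCC it was higher in LP at 509 (38.5%). The highest of the 37 were the Cd300c site, with 326.2 in LP and 108.5 in Phase 1, and a site near Cd300lb, with 201.2 and 97.6, both in a cluster of receptor genes of myeloid cells and 299 bp and 121 bp from a RUNX1 peak. A Med12 peak of either stage was present at 5 of the 37 and CTCF at 1. Over all 1597 sites these shares were 42.4% and 34.4%, and over all distal LP p300 peaks 82.9% and 23.1%. The sites printed for D17H6S56E-5 and Xxylt1 also hold many cores and share long stretches with the Cd300c sequence, on the other strand at D17H6S56E-5. The deposited annotation does not name the repeat there. Both sites therefore stay in the values given without the 37, which leave out annotated copies only. Without the 37, AACTGCC was still at 15.3% (13.6% to 17.1%) of the sites and 2.24% of flanking windows.

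**Figure D4:**
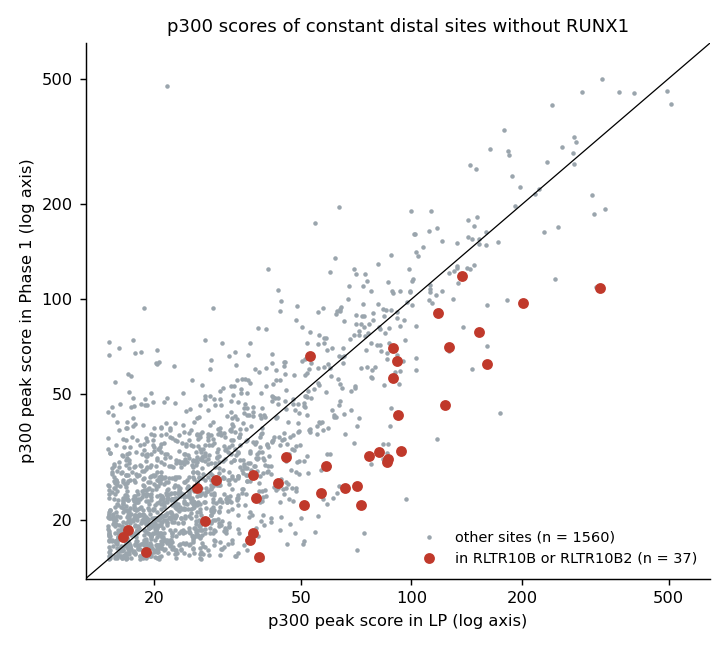
LP p300 peak score (horizontal, log axis) against Phase 1 p300 peak score (vertical, log axis) of the 1597 constant distal sites without RUNX1, with the 37 in RLTR10B or RLTR10B2 as large points and a line of equal scores. The 37 had medians of 71.0 in LP and 30.5 in Phase 1, and the scores come from 2 lists with no common scale.

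The RBPJ string was often in the repeat. RBPJ tethers Notch1-IC to DNA, and its string was at 11.1% of the sites with neither Med12 nor CTCF, where 63 of the 99 sites with it fell; 34 of the 99 were in RLTR10B or RLTR10B2. A Phase 1 or Phase 2 peak of Notch1-IC lay on 3 of the 1597 sites (0.188%, 0.0639% to 0.551%), 0.818% of all distal LP p300 peaks and 1.15% of constant sites with RUNX1, and the lists are short, with 152 and 352 peaks. An LP peak, from a list of 1585, lay on 8 sites (0.501%, 0.254% to 0.985%). The LP share was 4.91% over all distal LP p300 peaks and 6.89% at constant sites with RUNX1. At LP-specific sites without RUNX1 it was 0.385%. The site in intron 1 of Aff1, which encodes a subunit of the super elongation complex, had a Phase 2 Notch1-IC score of 27.3, Med12 scores of 38.9 in LP and 53.5 in Phase 1, and a RUNX1 peak 23 bp away. The site near Coro2a had Notch1-IC scores of 105.8 in LP, 71.2 in Phase 1 and 36.3 in Phase 2, and lies in an MMTV element.

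The third, in intron 1 of Colq, showed the largest stage difference among the highest scoring sites. Colq encodes the collagen tail that anchors acetylcholinesterase. Its p300 score was 21.7 in LP and 472.3 in Phase 1, its Phase 1 Med12 score 226.8 with no LP peak, and its Notch1-IC scores 15.5 in Phase 1 and 43.1 in Phase 2. It also lay 1 bp from a RUNX1 peak and had a RUNX1 peak with a score of 39.9 in the Phase 1 sgCont list, so it is a site without RUNX1 only by the edge of a peak.

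Most sites lay well away from RUNX1. The nearest RUNX1 peak was a median of 6011 bp away (quartiles 1899 and 15589 bp), with 66 sites within 200 bp, 265 within 1 kb and 566 with none within 10 kb. Just inside the rule stood the sites at Colq, Dnajc18 and Chp2, 1 to 2 bp from RUNX1, and just outside it those near 1700012D14Rik, Dlx2 and D230017M19Rik, which shared 2, 4 and 6 bp with RUNX1. The RUNX1 lists of guide-carrying cells were not part of the rule: their control lists overlapped 3 of the 1597 sites (0.188%) and 7.69% of constant sites with RUNX1. These lists are short, with 975 and 1550 peaks, and repeat the factor that chose the sites, so the difference is a description.

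Med12 in cells with guides was compared to ask whether it depends on Cbfb at sites with no RUNX1. In the sgCont list Med12 lay on 4.26% of the sites (3.37% to 5.36%, 68 of 1597) and in the sgCbfb list on 16.8% (15.1% to 18.8%, 269 sites), whereas the shares over all distal LP p300 peaks were 36.3% and 29.6% and at constant sites with RUNX1 50.3% and 35.5%. Of the 68 sites with Med12 in sgCont, 31 kept it in sgCbfb (45.6%), against 52.7% at constant sites with RUNX1 and 53.2% over all distal LP p300 peaks. The odds ratio against constant sites with RUNX1 was 0.753 (0.466 to 1.22, adjusted exact p = 0.316). With 1 site per nearest gene it was 0.522 (adjusted exact p = 0.0166). Counting the other way, a comparison added after the data were seen, 238 of the 275 sites with Med12 in exactly 1 of both lists had it in sgCbfb (86.5%), against 27.5% of 6091 constant sites with RUNX1 (odds ratio 16.9, 11.9 to 24.0, p = 1.11e-88 in Fisher's exact test). The LP-specific sites without RUNX1 had 95.2%, the Phase 1-specific ones 84.6% and all distal LP p300 peaks 37.8%.

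The Med12 peaks found in sgCbfb were weak and often at CTCF. Their median percentile was 17.5 in their list, and they lay on 28.1% of the sites with CTCF at both stages and 11.4% of those with no CTCF, against 3.85% and 4.58% in sgCont. Without CTCF sites the odds ratio of the added comparison was 10.0. Each guide has 1 pooled list, with 18099 peaks in sgCbfb and 19053 in sgCont, so a difference between the immunoprecipitations cannot be told apart from one between the guides. The paper also reports that ChIP-seq of cells lacking Cbfb used as few cells as possible and was noisier than usual. The part of such noise in these peaks was not tested.

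**Figure D5:**
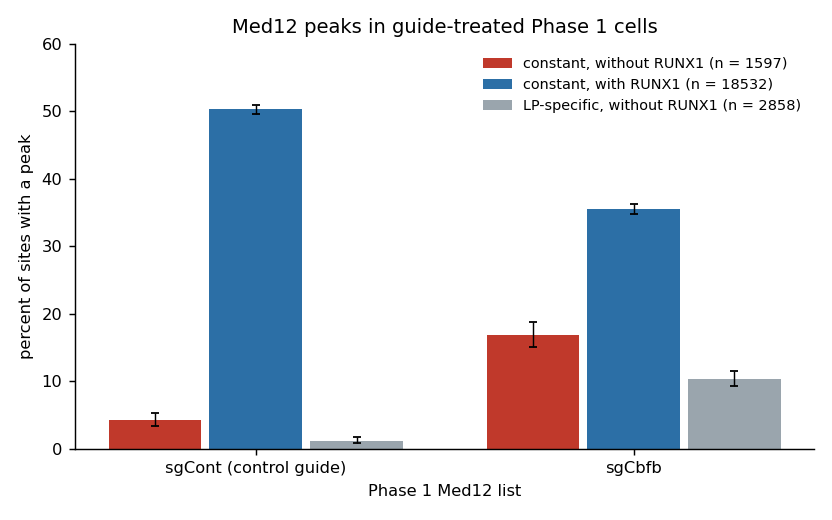
Percent of distal p300 sites (vertical axis) that overlap a Phase 1 Med12 peak in cells with the control guide (sgCont) or the guide against Cbfb (sgCbfb), for the 3 classes of site; lines are 95% Wilson intervals over sites. Constant sites without RUNX1 had 4.26% in sgCont and 16.8% in sgCbfb, whereas those with RUNX1 had 50.3% and 35.5%.

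The 103 sites with Med12 in sgCbfb only and no CTCF held the AP-1 string at 23.3% (16.2% to 32.3%), PU.1 at 19.4% (12.9% to 28.1%) and RUNX at 0.971% (0.172% to 5.30%), against 14.1%, 9.36% and 9.15% of the 481 sites with Med12 without CTCF. The 481 were set by the Med12 lists of cells without guides, so the 103 are not all among them. AP-1, the Fos and Jun dimer, binds TGACTCA, and PU.1 is an ETS factor of myeloid and early lymphoid cells. These shares come from a class formed from the lists and have no test.

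The nearest genes were many and mostly had 1 site each. The sites fell to 1440 nearest genes, 1304 of them with 1 site. The most sites of a gene were 4, at Chst11, Cntn5 and Got2, and 60 sites had another within 10 kb. Lists of T, B and myeloid genes, stem and progenitor factors, Notch genes, receptors, E proteins and zinc fingers, the p300, Mediator and CTCF machinery, and immediate early genes each held 1 to 6 of the 1597 sites, or 0.0626% to 0.376%, against 0.146% to 0.464% of constant sites with RUNX1.

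Several of these sites were near well-known regulators of lymphoid development. Among T lineage genes, the site at chr4:135095725-135096053 lay -24.8 kb from the start of Runx3, a RUNX family member, with p300 scores of 182.4 and 99.3 in LP and Phase 1 and Med12 scores of 86.8 and 43.9; Satb1, a chromatin organizer of thymocytes, had 1 site in an intron with 19.6 and 29.9. In the list of E proteins and zinc fingers, the Ikzf1 site, in the gene of the Ikaros factor, scored 94.6 and 63.5. Single intronic sites of Runx2 and Runx1, RUNX family genes placed in that same list, scored 73.7 and 26.8 in LP. Of these 3, Runx2 had Phase 1 Med12, with a score of 50.2, and none had CTCF.

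Near B lineage genes, Blnk, which encodes an adaptor of B cell receptor signaling, had its highest site at 59.6 in LP and 29.5 in Phase 1, Foxo1 at 34.7 and 24.4, Pax5, the B cell commitment factor, at 22.1 and 18.6, and Irf4 at 17.5 and 48.7. Pax5 had no constant site with RUNX1 as its nearest gene. The Notch pathway genes with a site were Maml3, a coactivator of Notch1-IC, with scores of 73.1 and 83.3, and Rbpj with 19.2 and 15.8.

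Of the stem and progenitor factors, 4 had 6 sites in all, and the highest site of each had CTCF, which lay on 34.4% of all 1597 sites. At Hoxa7, a homeobox gene of progenitors, p300 scores of 113.6 and 97.3 stood beside CTCF scores of 295.7 and 411.5. The highest sites of Bcl11a, Zfpm1 and Mef2c had LP CTCF scores of 93.4, 279.2 and 26.7. Zfpm1 was placed in this list, although the paper counts it among Notch-regulated T-signature genes. Of the myeloid genes, the Irf8 site printed above had CTCF scores of 193.1 and 195.3, and the Cebpe site Med12 scores of 28.3 and 36.8. Of the others, Ccr9, a thymus homing receptor, had a site in intron 1 with 55.7 in LP and 20.5 in Phase 1, and the immediate early gene Egr3 one with 80.9 and 128.9.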

How the data were processed

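Chromatin from Cas9-LP cells was measured in 38 samples of 19 groups with 2 replicates each, 4 of the samples being inputs, and 17 peak lists were analysed. The submitters' processing notes list bcl2fastq 1.8.4, while the study's methods name another version of it. The authors aligned them to mm10 with Bowtie 1.1.1, keeping reads with up to 10 best matches, called peaks with HOMER against a control, kept those reproducible between both replicates with a score of at least 15, and annotated them with HOMER. The deposited peak score is HOMER's measure of signal and is comparable only within a list, since its scale is not stated. The deposited focus ratio, a fraction of a peak's reads near its centre, was read but gave no result. Lists with no read counts give no depth.

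Peaks shared between lists overlapped by at least 1 bp. Shares were compared with Fisher's exact test (two-sided, sample odds ratio with a 95% Woolf interval), adjusted by Benjamini-Hochberg over 22 tests with a threshold of 0.05, and score-matched odds ratios are Mantel-Haenszel values over 5 classes. Of the 22 tests, 14 passed. Among the 14, the RUNX string and the guide-control RUNX1 lists, each against constant sites with RUNX1, repeat the factor of the rule and are descriptions. Strings were searched on both strands in the 200 bp around the peak centre and 2 kb to either side, in the GRCm38 sequence. A class with no site holding a feature was given the limit of 3 counts. The tests were checked on simulated data. The study's methods compare peak sets by overlap, which these tests follow.

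The sites, strings and gene lists were chosen with earlier results of these data known. Named single sites are the 10 highest of each stage, the 3 highest of each Med12 and CTCF class, the highest of a listed gene (at most 4 genes a list), the 3 nearest on each side of the RUNX1 rule, and those with Phase 1 or Phase 2 Notch1-IC, with genes named alone if among the 10 with most sites. Cd300lb was chosen after its values were seen. The ranking of words, the tests of all 22 strings, the comparison of peaks in exactly 1 guide list and the values without the sites annotated in the repeat were added after seeing the data. Python 3.11.15, scipy 1.17.1, statsmodels 0.14.6 and pysam 0.24.0 were used.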

Additional observations from a re-analysis of the deposited data

Results flagged for a closer look

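One comparison stood out because 2 classes of site differed in which guide list held Med12. Among sites with a Phase 1 Med12 peak in exactly 1 of the sgCont and sgCbfb lists, the odds that it was the sgCbfb list were 16.9 times higher at constant distal p300 sites without RUNX1 (238 of 275) than at those with RUNX1 (1678 of 6091), with an interval of 11.9 to 24.0 and p = 1.11e-88 in Fisher's exact test. The odds ratio was 12.5 when matched on p300 score, 19.3 with 1 site per nearest gene, 37.2 without sites that have RUNX1 within 1 kb and 10.0 without CTCF sites. Over all distal LP p300 peaks the sgCbfb share was 37.8%. It was 95.2% at LP-specific and 84.6% at Phase 1-specific sites without RUNX1, so the pattern is not particular to the constant sites. The noise that the paper reports for ChIP-seq of cells lacking Cbfb applies here too. Outliers among samples could not be sought, since each list pools its replicates.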

How the results depend on the processing

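Of 179 values recomputed under an alternative, 151 kept their direction and their side of the threshold. All comparisons of Med12, CTCF, RUNX, PU.1 and CTCF strings with constant sites with RUNX1 did so. The number of sites was 434 with p300 scores of at least 30, 1332 to 1669 under the other rules for choosing them, and 1048 when sites with CTCF were left out. The remaining values are odds ratios, and the cause of each change was not tested.

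Against constant sites with RUNX1, a p300 score of at least 30 turned AP-1 (0.951), E-box (0.917) and intergenic (0.927) below 1. E-box passed the threshold when matched on score (1.24) and was 0.974 in 400 bp. With 1 site per nearest gene, AP-1 (1.26), intergenic (1.16) and sgCont Med12 kept in sgCbfb (0.522) passed. Without CTCF sites, AP-1 (1.36) and E-box (1.18) passed and intergenic was 0.963. With no RUNX1 within 1 kb, intergenic passed (1.16).

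Against LP-specific sites, LP Med12 was 0.884 at scores of at least 30, 0.899 when matched and 0.913 without CTCF sites. PU.1 lost its call at scores of at least 30 (0.904), when matched (0.787) and with no RUNX1 within 1 kb (0.793). The CTCF string passed with promoters set by distance (1.31), no RUNX1 within 1 kb (1.37), matching (1.35) and 400 bp (1.34). Against Phase 1-specific sites, Phase 1 Med12 was 1.03 with overlap of 50% of the narrower peak, 0.386 at scores of at least 30, 0.801 when matched, 0.758 with 1 site per nearest gene and 1.26 without CTCF sites, and RUNX lost its call at scores of at least 30 (0.775).

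No paired analysis was possible because each list combines both replicates. Leaving out a replicate was not run for the same reason. The lists hold no score under 15, and the absence of RUNX1 at a site says only that no peak was called there.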

Other observations

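Short interspersed elements (SINEs) were annotated at 6.07% of the sites (5.00% to 7.35%), 3.38% (3.13% to 3.65%) of constant sites with RUNX1 and 4.93% of LP-specific sites without RUNX1, and LTRs of all kinds at 9.83% and 9.77% of the sites without and with RUNX1. Of the LTR names most often found, RLTR45 held 10 of the 1597 sites and 185 of the 18532 constant sites with RUNX1, and ORR1E 9 and 184. Sites with AACTGCC at least 2 times numbered 65, of which 28 were not annotated in RLTR10B or RLTR10B2, against 53 of the 18532 constant sites with RUNX1. None of the 65 had Med12 in the sgCont or sgCbfb list (upper Wilson bound 5.58%). Over all 1597 sites the shares were 4.26% in sgCont, which is under that bound, and 16.8% in sgCbfb. LP Med12 lay on 8 of the 65 (12.3%) and Phase 1 Med12 on 4 (6.15%), against 25.6% and 28.5% of all 1597. The percentile of p300 was higher in LP than in Phase 1 at 51 of the 65.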
